A study of Sus scrofa with 24 samples.

Results

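The insulin-like growth factor (IGF) system was followed in the subcutaneous fat of pigs through 10 genes: the ligands IGF1 and IGF2, the receptors IGF1R and IGF2R, and the binding proteins IGFBP2, IGFBP3, IGFBP4, IGFBP5, IGFBP6 and IGFBP7. Members were the array probes that the scanner files name with one of these symbols, or whose RefSeq identifier carries it, and the IGF2R probes were matched through the synonym M6P/IGF2R. This gave 26 probes of 43603, all of them among the 28601 probes that passed the filter on dim signals. The study hybridised total RNA from 24 pigs to Agilent one-colour arrays (Cy3), 1 array per pig, at 115 kg body weight, with 8 pigs in each of 3 groups. RFIneg pigs came from a line with low residual feed intake and were fed ad libitum. RFIpl pigs came from a line with high residual feed intake and were fed ad libitum. RFIplR pigs came from the same high line and were held to the feeding level of the RFIneg pigs. Residual feed intake is the feed eaten beyond what growth and maintenance predict. Ages, sexes and breeds are not given in the sources used here, and the groups are defined by line and feeding alone, so RFIneg and RFIpl differ in line and in feed eaten, RFIplR and RFIpl in feed allowance, and RFIneg and RFIplR in line at a shared allowance.

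IGF1 and IGF2 are secreted growth factors that act through the tyrosine kinase IGF1R, while IGF2R, which is also the cation-independent mannose 6-phosphate receptor, binds IGF2 and carries it to lysosomes. The binding proteins hold IGFs in the circulation and the matrix and either restrain or prolong their action, and several are cut by proteases that free the ligand. In fat, IGF1 promotes the growth and differentiation of adipocyte precursors, and part of its expression is under growth hormone control.

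The probes are oligonucleotides of 60 bases, and the results below differ between probes of 1 gene, so the sequences of 6 probes are shown, as listed in the scanner files. They include the only IGFBP5 probe, which has no second probe to compare. The sequences of the IGF2 probe at base 1430 and the IGF2R probe at base 822, which may lie in untranslated sequence, are not printed. Bases are counted along the transcript on which each probe was designed. The scanner files mark the probes shown as unmapped, so no genome position is given. Capitals mark runs of 20 or more bases shared with another probe of the gene.
IGF2, base 388: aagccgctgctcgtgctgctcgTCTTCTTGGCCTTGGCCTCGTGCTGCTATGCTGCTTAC
IGF2, base 410: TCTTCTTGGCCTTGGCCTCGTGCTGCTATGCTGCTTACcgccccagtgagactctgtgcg
IGF2, base 679: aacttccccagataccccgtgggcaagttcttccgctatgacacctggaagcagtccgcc
IGFBP5, base 665: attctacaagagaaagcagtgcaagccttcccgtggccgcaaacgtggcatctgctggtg
IGF2R, base 7017: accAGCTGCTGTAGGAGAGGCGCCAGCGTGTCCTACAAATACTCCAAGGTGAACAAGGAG
IGF2R, base 7049: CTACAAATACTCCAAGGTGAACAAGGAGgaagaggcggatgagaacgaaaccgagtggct
The IGF2 probes at bases 388 and 410 share 38 bases, and the IGF2R probes at bases 7017 and 7049 share 28 bases. A further IGF2R probe at base 7020 shares 57 bases with the one at base 7017. These overlapping probes read nearly the same stretch of RNA and are not independent measurements. The IGFBP2 probes at bases 1308 and 1316 share 52 bases, and 2 of the 3 IGFBP6 probes share 28.

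The arrays fell into 2 brightness classes that cross the groups. In 17 bright arrays the processed intensity had a 75th percentile between 413.8 and 662.4, and in 7 dim arrays between 69.3 and 94.3. The dim arrays were 2 of RFIneg, 2 of RFIpl and 3 of RFIplR, and all of them belonged to the second of 3 scan days. All 7 measured adipocyte markers were well above background on every array. The mean of 6 skeletal muscle markers reached 6.51 on RFIpl array 2, against at most 0.89 in RFIplR and 0.80 in RFIneg, and the mean of 2 keratinocyte markers reached 4.78 on RFIpl array 7. Red cell markers had no named probe. Results are therefore also given with brightness as a block and without RFIpl arrays 1 and 2, or 7 and 8. Each pair also leaves out a second array, 1 or 8, so a change with the pair cannot by itself be assigned to array 2 or 7. Fits that leave out 1 array at a time are given as well. Levels are log2 processed intensities minus the 75th percentile of the array, here called normalized log2 levels, and they rank 1 probe over samples, not 1 probe against another. Differences are in log2 units from 1 limma fit over all 24 arrays, with two-sided p-values adjusted (Benjamini-Hochberg) over all 28601 probes and a threshold of 0.05.

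With array brightness as a block, IGFBP5, read by 1 probe, had the largest difference of the 26 probes in both comparisons with RFIpl. IGF2 was called at 3 of its 6 probes for RFIneg and at 1 for RFIplR. Both genes were lower in the groups that ate less. IGFBP5 was lower in RFIneg than in RFIpl by 0.94 ± 0.22 (SE) and lower in RFIplR than in RFIpl by 0.80 ± 0.22, and IGF2 at its brightest probe was lower by 0.41 ± 0.11 and 0.40 ± 0.12, all with brightness as a block. Among the alternatives run, these passed with brightness as a block, alone or with scan day, and with array weights, but not with brightness and slide as blocks together. IGFBP5 also passed without RFIpl array 3, the lowest of RFIpl at this gene, whose removal widens the difference by construction. In the fit with neither block nor weights no member probe was called in any comparison, where 0.206% of all probes were called for RFIneg against RFIpl, 0.297% for RFIplR against RFIpl, 0% for RFIneg against RFIplR and 0.276% for any group difference. With brightness as a block, 4 of the 26 probes in 2 genes were called for RFIneg against RFIpl, all lower, where 6.63% of all probes were called and 2.31% were called lower. For RFIplR against RFIpl, 4 probes in 4 genes were called, 3 lower and 1 higher, where 10.3% of all probes were called, 4.51% lower and 5.81% higher. One of the 3 lower probes, IGF1R at base 3476, passed the filter on dim signals only through RFIpl, the group where it was high, and its call is not read as a result. The F test of any group difference called 5 member probes in 3 genes against 9.03% of all probes. For RFIneg against RFIplR the block gave 0 calls among members and 0% over all probes, with 2714 of all probes at an unadjusted p under 0.05. Within the bright arrays alone no member was called, where 1.03% of all probes were called for RFIneg against RFIpl and 3.27% for RFIplR against RFIpl, nor within the dim arrays alone, where 0% were. Counts this small over 26 probes, several of 1 gene, are given as descriptions. Both comparisons with RFIpl use the same 8 RFIpl arrays.

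**Figure D1:**
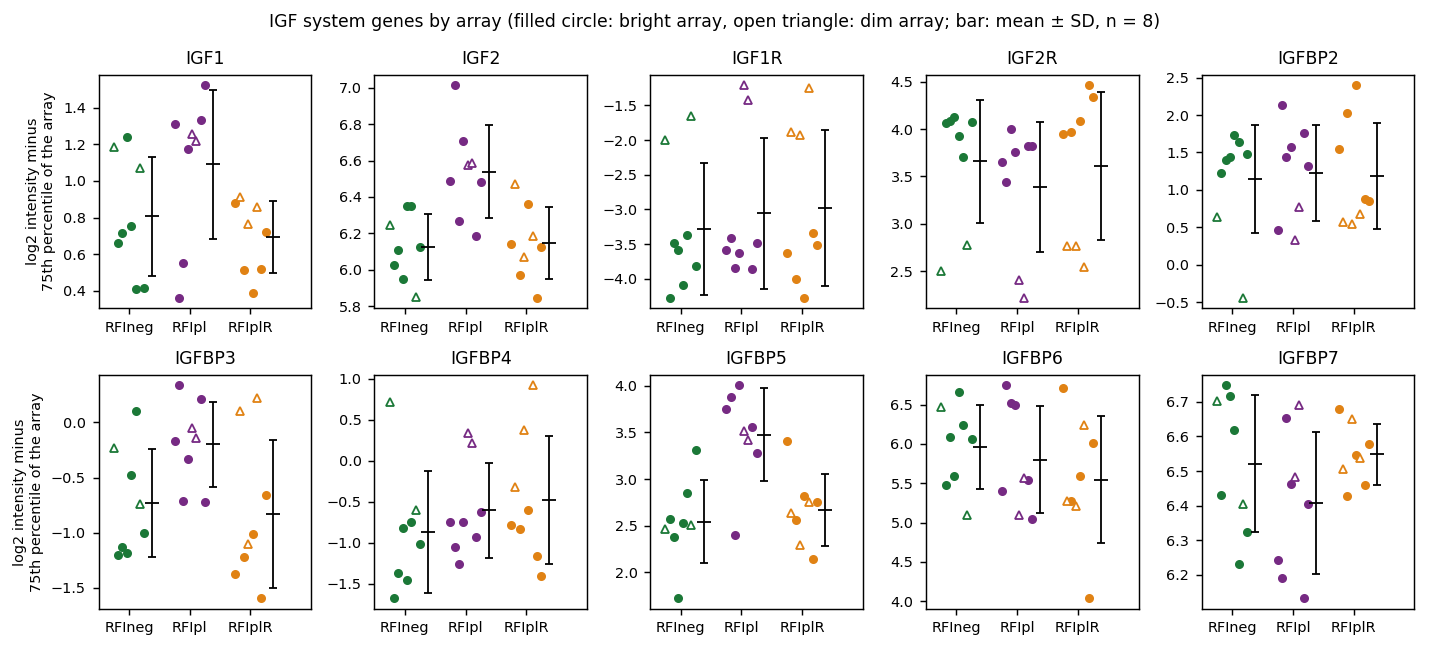
Normalized log2 levels of the 10 genes, each at its probe with the highest mean, by group, with 1 point per array and the mean ± SD (n = 8) as a bar; filled circles are bright arrays and open triangles dim arrays. At IGFBP5, 6 of 8 RFIpl arrays lie above every array of the other 2 groups and the lowest RFIpl array is at 2.39, and IGF2R and IGF1R separate bright from dim arrays more than they separate groups.

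Of the ligands, IGF2, the growth factor most abundant in fetal life, was read by 6 probes. At the brightest probe (base 1430) the levels ran from 5.85 through a median of 6.12 to 6.35 in RFIneg, from 6.18 through 6.53 to 7.01 in RFIpl, and from 5.85 through 6.13 to 6.47 for RFIplR. The groups overlap, but all 8 RFIneg and all 8 RFIplR values lie below the RFIpl mean of 6.54, and 6 of 8 RFIpl values lie above the highest RFIneg value. The difference of RFIneg from RFIpl had an adjusted p of 0.316 without the block and 0.0322 with it (limma), and that of RFIplR from RFIpl 0.286 and 0.0301. The blocked calls depended on single arrays: with 1 array left out, the one for RFIneg held in 14 of 24 fits and the one for RFIplR in 18. With slide added to the block neither passed, at -0.46 (adjusted p = 0.0767, limma) and -0.44 (adjusted p = 0.0540, limma). RFIneg and RFIplR differed by -0.02 ± 0.11 with the block (95% interval -0.25 to 0.22).

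The other IGF2 probes gave the same direction for RFIneg against RFIpl, with differences of all 6 between -0.49 and -0.26. With the block, 3 of the 6 were called: base 1430, base 410 (-0.46 ± 0.13, adjusted p = 0.0363, limma) and base 679 (-0.49 ± 0.14, adjusted p = 0.0381, limma). At base 679 the levels ran from 2.15 through 2.86 to 3.19 in RFIneg, from 2.86 through 3.25 to 3.96 in RFIpl and from 2.26 through 2.88 to 3.48 in RFIplR. Every RFIneg value was below the RFIpl mean, and RFIpl array 2 gave the highest value at this probe. For RFIplR against RFIpl only base 1430 passed, while base 679 stood at -0.44 ± 0.14 (adjusted p = 0.0503, limma) and base 410 at -0.40 ± 0.13 (adjusted p = 0.0511, limma), just outside the threshold. With 1 array left out, the RFIneg call held in 14 of 24 fits at base 410 and in 12 at base 679. The probe at base 388, which shares 38 bases with the one at base 410, was not called in either comparison, at -0.26 ± 0.13 and -0.10 ± 0.13. The level on bright minus dim arrays was -1.61 at base 388 and -0.47 at base 410.

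**Figure D2:**
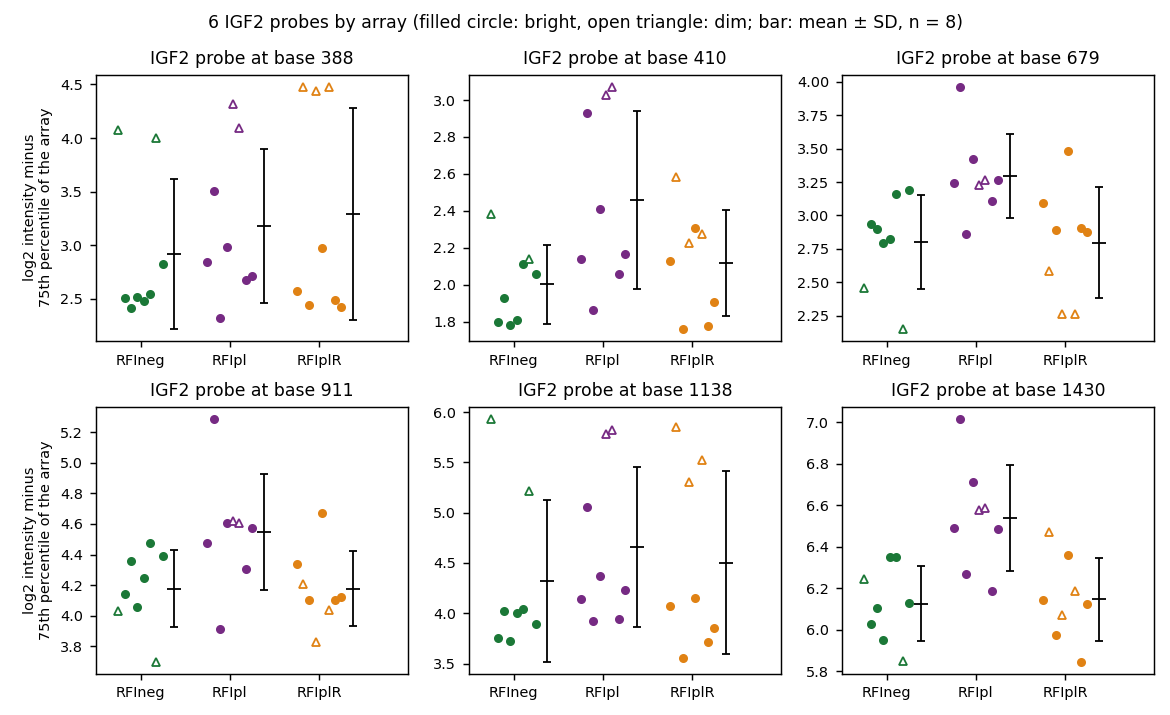
Normalized log2 levels of the 6 IGF2 probes by group, with 1 point per array and the mean ± SD (n = 8) as a bar; filled circles are bright arrays and open triangles dim arrays. The probes at bases 388 and 1138 separate dim from bright arrays, the probe at base 1430 does not, and RFIpl array 2 gives the highest RFIpl value at base 1430, at 7.01.

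The highest IGF2 level at base 1430 came from RFIpl array 2, the array with the highest muscle markers, and the part of muscle RNA in the difference was not tested. Without RFIpl arrays 1 and 2, the blocked difference at base 1430 was -0.34 for RFIneg against RFIpl (adjusted p = 0.113, limma) and -0.33 for RFIplR against RFIpl (adjusted p = 0.0817, limma), and neither was called. Bases 410 and 679 also lost their calls for RFIneg, at -0.39 (adjusted p = 0.0986, limma) and -0.43 (adjusted p = 0.112, limma). Leaving out RFIpl array 2 alone also lost the blocked RFIneg calls at bases 1430, 410 and 679. So did leaving out any of several other single arrays of RFIneg or RFIpl. Without RFIpl arrays 7 and 8 base 1430 stayed past the threshold in both comparisons, and bases 410 and 679 passed it for RFIplR as well, at -0.47 (adjusted p = 0.0474, limma) and -0.51 (adjusted p = 0.0493, limma). Within the bright arrays the differences at base 1430 were -0.37 and -0.44, and within the dim arrays -0.54 and -0.34. Within each of 3 scan days, the last of which held 1 array per group, RFIpl was higher than either other group, and within slides RFIneg was lower than RFIpl on all 5 slides that hold both, RFIplR on 4 of 5.

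IGF1, whose product mediates much of growth hormone action, was read by 2 probes, whose differences for RFIplR against RFIpl had opposite signs. At base 505 the levels ran from 0.41 through 0.74 to 1.24 in RFIneg, from 0.36 through 1.24 to 1.52 in RFIpl and from 0.39 through 0.74 to 0.91 in RFIplR. The groups overlap over the whole RFIplR range, since RFIpl arrays 2 and 3 lie low, while 6 of 8 RFIpl values lie above every RFIplR value. The blocked difference was -0.43 ± 0.15 for RFIplR against RFIpl (adjusted p = 0.0657, limma) and -0.28 ± 0.15 for RFIneg against RFIpl (adjusted p = 0.258, limma), neither of them called. With 1 array left out the former was called in 2 of 24 fits, without RFIpl array 2, at -0.52 (adjusted p = 0.0182, limma), and without array 3. Without arrays 1 and 2 together it was -0.49 (adjusted p = 0.0430, limma), past the threshold, and without arrays 7 and 8 -0.30 (adjusted p = 0.229, limma), not past it. Array weights without the block gave -0.61 (adjusted p = 0.0199, limma). At base 1077 the blocked differences were 0.13 ± 0.18 and -0.05 ± 0.18.

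Among the receptors, IGF1R, the signalling receptor for both ligands, was close to background. At base 3476, 7 of 8 RFIpl arrays measured it well above background, as did 4 arrays in each other group, and 1 of the 7 dim arrays was among them. Its levels ran from -5.08 through -4.02 to -2.43 in RFIneg, from -4.26 through -3.70 to -2.05 in RFIpl and from -4.85 through -4.09 to -2.79 in RFIplR, so the groups overlap. Since the probe passed the filter on dim signals only through RFIpl, its blocked difference of RFIplR from RFIpl, -0.63 ± 0.20, is given with no test. The second probe, at base 3826, gave -0.18 ± 0.15 for the same comparison (adjusted p = 0.484, limma).

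IGF2R, which clears IGF2 from the cell surface, was read by 5 probes that split by probe. The probe at base 822 rose in RFIplR over RFIpl by 0.40 ± 0.10 with the block (adjusted p = 0.0120, limma), while after normexp background correction without the block the difference was -0.08; for RFIneg it was 0.27 ± 0.10 with the block (adjusted p = 0.0907, limma). Its levels ran from 2.51 through 4.0 to 4.13 in RFIneg, from 2.22 through 3.71 to 4.0 in RFIpl and from 2.55 through 3.96 to 4.46 in RFIplR. Read over all arrays these ranges overlap, because dim arrays lay 1.39 below bright ones at this probe. Over bright arrays alone RFIpl ran from 3.44 to 4.0 and RFIplR from 3.95 to 4.46, and over dim arrays RFIpl ran from 2.22 to 2.41 and RFIplR from 2.55 to 2.77. The 2 groups overlap narrowly among bright arrays and not among the dim ones. The call for RFIplR remained in all 24 fits that left out 1 array, with differences from 0.35 to 0.43, and without RFIpl arrays 1 and 2 it was 0.33 (adjusted p = 0.0457, limma).

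The other IGF2R probes did not show this. The probes at bases 6693, 7017, 7020 and 7049 gave blocked differences of RFIplR from RFIpl between -0.02 and 0.07, and of RFIneg from RFIpl between 0.08 and 0.38, with none called. On the bright arrays these 4 probes read lower than on the dim arrays, with bright minus dim between -3.05 and -2.7, against 1.39 at base 822. Over all kept probes the shift of bright from dim arrays had a median of 0.05, with the 10th percentile at -2.51 and the 90th at 1.83, so the 4 probes lie below that 10th percentile. The probes at bases 7017, 7020 and 7049 overlap, so these 4 probes stand for fewer separate stretches. Whether the transcripts they read differ was not tested.

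**Figure D3:**
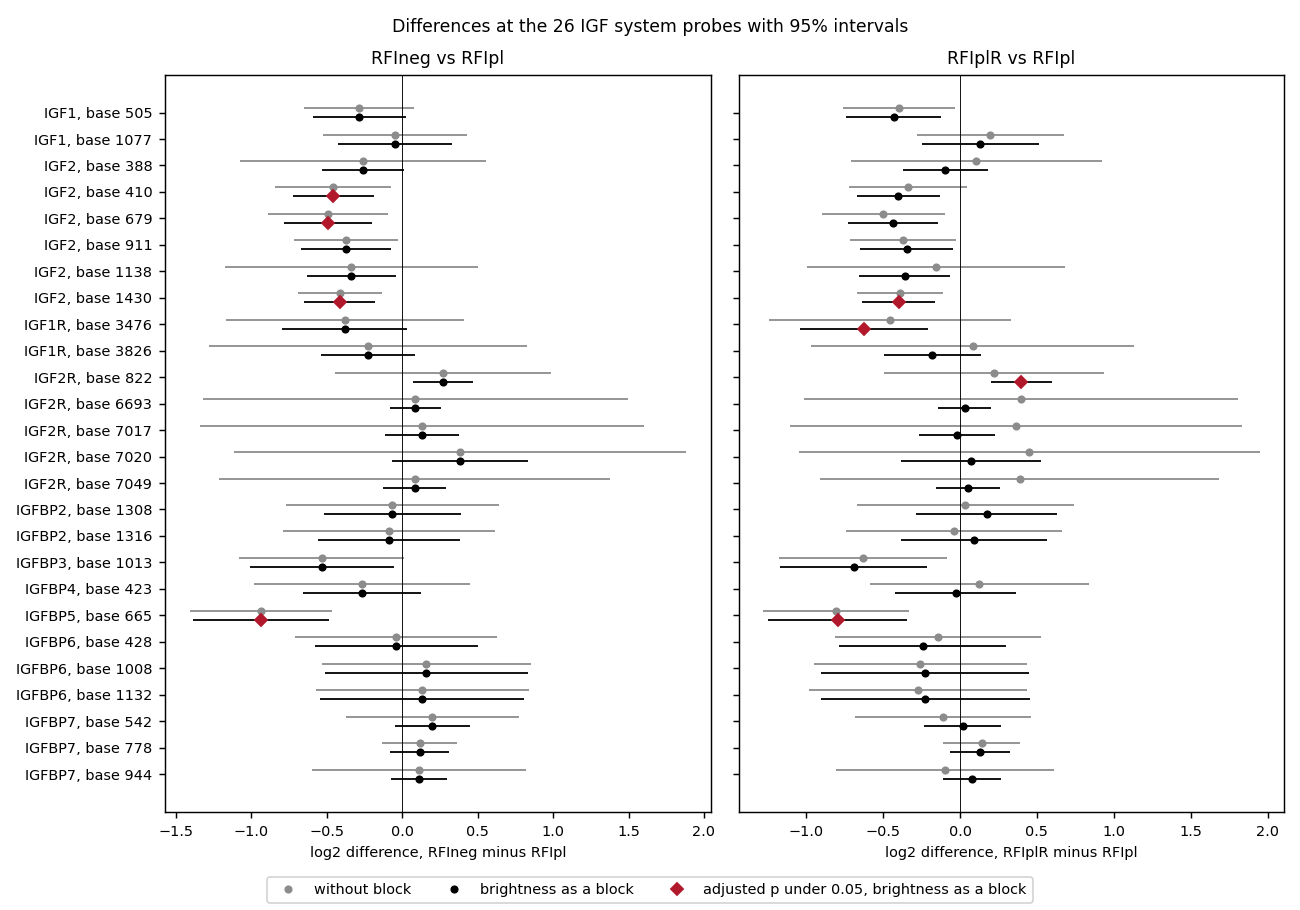
Log2 differences of RFIneg (left) and RFIplR (right) from RFIpl at the 26 probes with 95% intervals, without the block in grey and with brightness as a block in black, red diamonds marking an adjusted p under 0.05 (at IGF1R base 3476 not read as a result). The IGFBP5 probe lies at -0.94 and -0.80, and the IGF2R intervals without the block are wide.

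Among the binding proteins, IGFBP5, a matrix-binding member, showed the largest difference for RFIneg and, with brightness alone as a block, for RFIplR. It was read by 1 probe, so no second probe of the gene could be compared. Its levels ran from 1.72 through 2.52 to 3.31 in RFIneg, from 2.39 through 3.54 to 4.0 in RFIpl and from 2.14 through 2.69 to 3.41 in RFIplR. The groups overlap, with RFIpl array 3 the lowest of its group at 2.39, while 6 of 8 RFIpl values lie above every value of both other groups, and all RFIneg and RFIplR values lie below the RFIpl mean of 3.48. Without the block the difference was -0.94 ± 0.23 for RFIneg (adjusted p = 0.0976, limma), a ratio of 0.522, and -0.81 ± 0.23 for RFIplR (adjusted p = 0.141, limma), a ratio of 0.571. With the block it was -0.94 ± 0.22 (adjusted p = 0.0145, limma) and -0.80 ± 0.22 (adjusted p = 0.0237, limma). RFIneg and RFIplR differed by -0.14 ± 0.22 (95% interval -0.59 to 0.31).

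The IGFBP5 call for RFIneg remained in all 24 blocked fits that left out 1 array and that for RFIplR in 23, being lost without RFIplR array 7 (adjusted p = 0.0574, limma). With slide added to the block neither call held, at -0.90 (adjusted p = 0.0751, limma) and -0.77 (adjusted p = 0.0771, limma). Without RFIpl arrays 1 and 2 together the differences were -0.83 (adjusted p = 0.0695, limma) and -0.69 (adjusted p = 0.0797, limma). The bright arrays gave -0.92 and -0.74, and the dim arrays -0.99 and -0.91. Within scan days all 3 differences were negative in both comparisons, from -1.50 to -0.55 for RFIneg and from -1.02 to -0.46 for RFIplR. Within slides RFIneg was lower on 4 of 5 and RFIplR on 5 of 5. Less RNA per cell and fewer cells of the type that makes it cannot be told apart in whole fat. With the same block, 4 of the 7 measured adipocyte markers were called higher in RFIneg than in RFIpl and 2 higher in RFIplR, where 4.32% and 5.81% of all probes were. The mean of these 7 had medians of 6.27, 5.48 and 6.03 in the low line, the high line and the restricted high line. Of 6 stromal markers 1 was called lower in RFIneg and 0 in RFIplR, where 2.31% and 4.51% of all probes were called lower. All 6 stromal markers were well above background on every array, and their mean ran from 1.69 to 2.58 in RFIneg, from 2.03 to 2.60 in RFIpl and from 1.42 to 2.54 in RFIplR. The part of these markers in the result was not tested.

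IGFBP3, the main carrier of IGFs in blood, ran from -1.20 through -0.87 to 0.11 in RFIneg, from -0.72 through -0.16 to 0.33 in RFIpl and from -1.59 through -1.06 to 0.22 in RFIplR. In RFIneg and in RFIplR 5 of 8 arrays lay below every RFIpl array, yet the ranges overlap. The blocked difference was -0.69 ± 0.23 for RFIplR (adjusted p = 0.0577, limma) and -0.53 ± 0.23 for RFIneg (adjusted p = 0.167, limma). Leaving out 1 of 4 arrays (RFIneg 6, RFIpl 3, RFIplR 2 or RFIplR 6) brought the former under the threshold. Without RFIpl arrays 1 and 2 the RFIplR difference was -0.56 (adjusted p = 0.164, limma) and that of RFIneg -0.39 (adjusted p = 0.413, limma). Without arrays 7 and 8 the RFIplR difference was -0.67 (adjusted p = 0.107, limma). The highest RFIpl value, 0.33, came from array 2, which had the highest muscle markers, and the part of muscle RNA was not tested. The difference of RFIplR from RFIpl was -0.94 among bright arrays, against -0.16 among dim arrays. It passed with array weights, at -0.84 (adjusted p = 0.0130, limma), and with brightness and slide as blocks, at -0.81 (adjusted p = 0.0478, limma), and in these fits and in the bright arrays it was larger than that of IGFBP5.

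The remaining binding proteins gave no call. IGFBP2, a circulating binding protein also made in fat, ran from -0.44 to 1.74, from 0.33 to 2.14 and from 0.55 to 2.40 in RFIneg, RFIpl and RFIplR at its brighter probe, and its blocked differences from RFIpl were -0.09 ± 0.23 and 0.09 ± 0.23. IGFBP4, which acts mostly as an inhibitor of IGF action, ran from -1.67 to 0.72, from -1.26 to 0.34 and from -1.40 to 0.92, with differences of -0.27 ± 0.19 and -0.03 ± 0.19. IGFBP6, which binds IGF2 in preference to IGF1, ran from 5.10 to 6.66, from 5.05 to 6.74 and from 4.04 to 6.70, with differences of 0.16 ± 0.32 and -0.23 ± 0.33. IGFBP7, a low-affinity binder of IGFs found around vessels, ran from 6.23 to 6.75, from 6.13 to 6.69 and from 6.43 to 6.68, with differences of 0.11 ± 0.09 and 0.13 ± 0.09. The 95% intervals bound a change in IGFBP7 at base 778 to between -0.08 and 0.31 for RFIneg and between -0.07 and 0.32 for RFIplR. The interval for IGFBP6 at base 1008 was wider, between -0.51 and 0.83 for RFIneg and between -0.90 and 0.45 for RFIplR.

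Over all 26 probes with the block, 16 were lower in RFIneg than in RFIpl and 16 in RFIplR, with median differences of -0.08 and -0.14, beside medians of -0.01 and -0.02 over all kept probes. For RFIneg against RFIplR the median was 0.00 over the members and 0.02 over all kept probes, with 13 probes lower.

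Relations between members were computed over the 17 bright arrays and the 7 dim arrays apart, for 45 pairs of genes in each, at 1 probe per gene, since the brightness classes form separate clusters. In the bright arrays 6 pairs passed an adjusted permutation p of 0.05 by Pearson and 5 by Spearman. IGF2 was higher where IGF2R at base 822 was lower: r was -0.82 (permutation p = 4.0e-05, adjusted 0.00180) and rho was -0.77 (permutation p = 0.000420, adjusted 0.0147). Without the 2 arrays farthest from the IGF2 median r was -0.73, and with group means removed it was -0.70. IGF2 and IGFBP3 were high on the same arrays, at r = 0.74 (permutation p = 0.000610, adjusted 0.00731) and rho = 0.75 (permutation p = 0.000860, adjusted 0.0147), and r was 0.65 without the 2 farthest arrays and 0.54 with group means removed. So were IGF2 and IGFBP5, at r = 0.73 (permutation p = 0.000650, adjusted 0.00731) and rho = 0.74 (permutation p = 0.00113, adjusted 0.0147), and r was 0.59 without the 2 farthest arrays and 0.57 with group means removed. IGF2R at base 822 was lower where IGFBP3 was higher, at r = -0.78 (permutation p = 0.000150, adjusted 0.00337) and rho = -0.69 (permutation p = 0.00271, adjusted 0.0244), with r = -0.64 without the 2 arrays farthest from the IGF2R median and -0.59 with group means removed. IGF2R at base 822 was also lower where IGFBP5 was higher, at r = -0.71 (permutation p = 0.00130, adjusted 0.0117) and rho = -0.73 (permutation p = 0.00131, adjusted 0.0147), with r = -0.60 without the 2 arrays farthest from the IGF2R median and -0.60 with group means removed. The other IGF2R probes, which did not follow base 822, were not correlated. IGFBP3 and IGFBP7 passed by Pearson only, at r = -0.67 (permutation p = 0.00398, adjusted 0.0299) and rho = -0.55 (permutation p = 0.0250, adjusted 0.125), with r = -0.47 without the 2 arrays farthest from the IGFBP3 median and -0.56 with group means removed. In the 7 dim arrays no pair passed, and IGF2 against IGF2R gave r = -0.69 (exact permutation p = 0.0909, adjusted 0.511) and rho = -0.89 (exact permutation p = 0.0123, adjusted 0.277). These points share arrays, scaling and, in part, the group differences above.

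**Figure D4:**
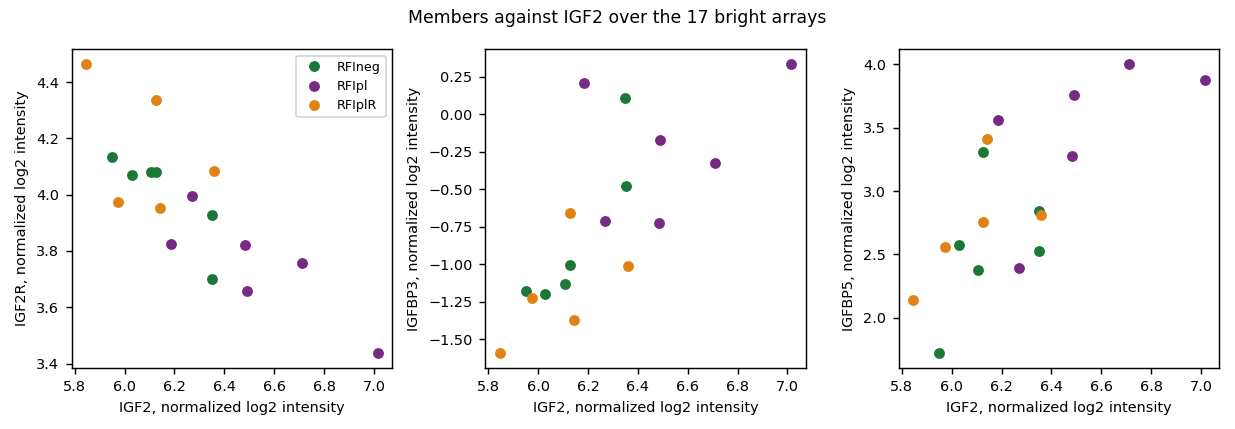
Normalized log2 levels of IGF2R, IGFBP3 and IGFBP5 against IGF2 over the 17 bright arrays, 1 point per array, coloured by group. IGF2R, at base 822, is lower and IGFBP3 and IGFBP5 are higher on arrays with more IGF2, and RFIpl array 2, at an IGF2 level of 7.01, is the farthest to the right.

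Genes whose levels over the 17 bright arrays were most like a member were ranked by Spearman correlation among 4392 genes. IGFBP5 was most like C4A (0.91), which encodes a complement component, ST3GAL4 (0.89) and MFAP2 (0.88), a microfibril component. IGF2 was most like SH3GL3 (0.86), CYBA (0.85) and FST (0.84), the activin antagonist follistatin. IGF1 was most like RAN (0.91), MGST3 (0.90) and RPL7L1 (0.88), and IGF2R at base 822 most like AS3MT (0.93), PAQR6 (0.90) and LRRC28 (0.89). These are descriptions over shared arrays.

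Of the genes around the IGF system, the growth hormone axis had 7 of 9 listed genes measured. None of them was called without the block. With the block, 1 was higher and 1 lower in each comparison with RFIpl, where 6.63% (RFIneg) and 10.3% (RFIplR) of all probes were called. GHR, the growth hormone receptor, was higher by 0.44 ± 0.12 in RFIneg (adjusted p = 0.0329, limma) and by 0.40 ± 0.12 in RFIplR (adjusted p = 0.0408, limma). SOCS2, an inhibitor of growth hormone signalling, was lower by 0.77 ± 0.20 in RFIneg (adjusted p = 0.0246, limma) and by 0.96 ± 0.20 in RFIplR (adjusted p = 0.00519, limma). IGFALS, whose product forms the ternary IGF complex in blood, gave -1.04 ± 0.38 in RFIneg (adjusted p = 0.0967, limma) and -0.66 in RFIplR (adjusted p = 0.288, limma), neither called. Its means of -4.26 (RFIneg), -3.21 (RFIpl) and -3.81 (RFIplR) are as low as those of IGF1R. Whether its probe passed the filter on dim signals only through RFIpl was not examined.

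Among proteases of the binding proteins and their inhibitors, 4 of 9 genes were measured. Without the block none of the 4 was called. STC1, which inhibits the protease PAPP-A, fell in RFIneg by 1.08 ± 0.25 with the block (adjusted p = 0.0155, limma) and stood at -0.49 ± 0.26 in RFIplR (adjusted p = 0.236, limma). RFIneg and RFIplR differed at this gene by -0.59 ± 0.26 (adjusted p = 0.473, limma). CTSD, a lysosomal protease, rose in both, by 0.58 ± 0.12 in RFIneg (adjusted p = 0.00613, limma) and by 0.59 ± 0.12 in RFIplR (adjusted p = 0.00374, limma). PAPPA itself and ADAM28, a metalloprotease, were not called. Both IGFBP-related genes measured of 8 listed, IGFBP1 and IGFBPL1, were not called. Of 12 measured genes of receptor signalling, of 28 listed, none was called without the block. With it only AKT1, a kinase downstream of IGF1R, was called in either comparison with RFIpl, where 6.63% and 10.3% of all probes were. AKT1 fell by 0.62 ± 0.15 in RFIneg (adjusted p = 0.0166, limma) and by 0.80 ± 0.15 in RFIplR (adjusted p = 0.00224, limma). The medians of the 12 were -0.03 and -0.05, beside -0.01 and -0.02 over all kept probes. Of the 6 listed regulators of IGF2 transcripts PLAG1 alone had a named probe, at differences of 0.00 and 0.04. For the genes of these lists, fits that leave out arrays or add slide to the block are not given.

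**Figure D5:**
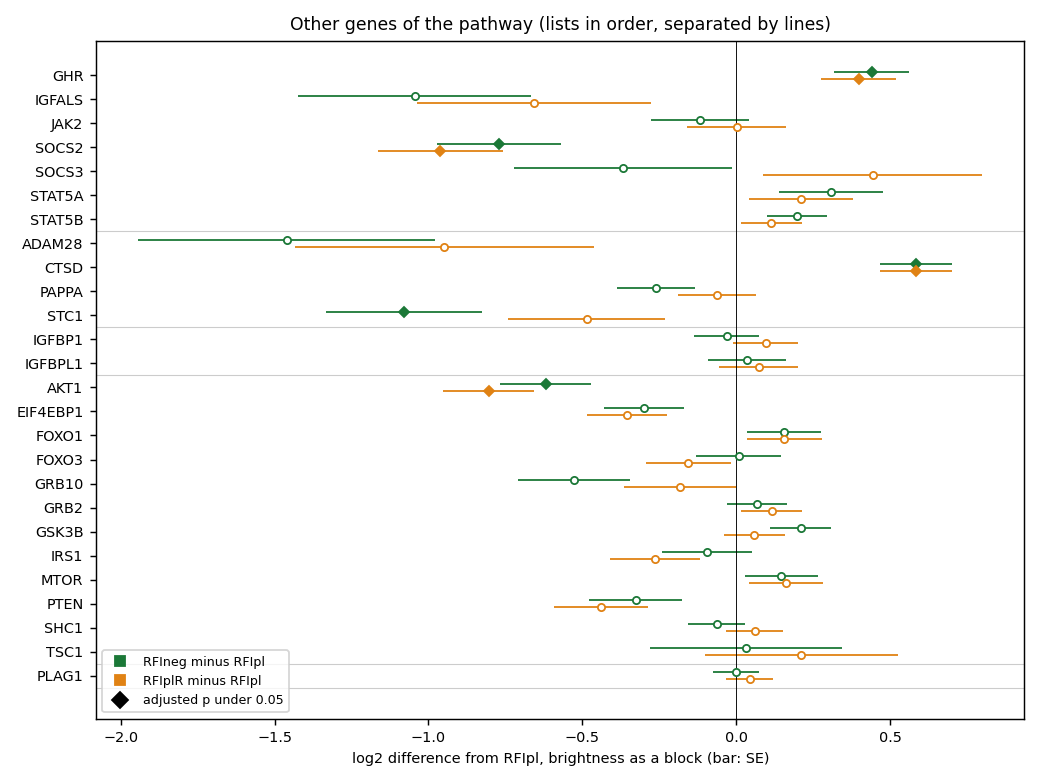
Log2 differences from RFIpl, with brightness as a block and SE bars, of the measured genes of 5 lists separated by lines, RFIneg in green and RFIplR in orange, filled diamonds marking an adjusted p under 0.05. GHR and CTSD lie right of 0, SOCS2 and AKT1 left of 0 in both comparisons, and STC1 is filled for RFIneg alone.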

How the data were processed

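Total RNA of 24 pigs, 1 array each, gave the measurements. The p-values measure the spread among pigs together with that among arrays, which 1 array per pig cannot separate. In fits without the block this spread includes the brightness of the arrays. Each deposited scanner file lists the intensity of every spot; per the file headers, Feature Extraction 10.7.3.1 wrote it, and the submitters' processing notes name R 2.10.0. The deposited log2 table held 24675 probes and differed from median-centred log2 processed intensity by an SD of at most 4.45e-10. No spot was saturated.

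Levels were log2 processed intensity (floor 1) minus each array's 75th percentile, without control and non-uniform spots. A probe stayed in if 6 of a group's 8 arrays, or more, had it well above background and at most 6 arrays lacked it. Differences came from limma 3.58.1 (R 4.3.3) over all 24 arrays, with Benjamini-Hochberg adjustment over 28601 probes, tested on simulated data. Brightness (75th percentile above 200) was a block in a listed alternative. RefSeq's Sscrofa11.1 table served for names only. Where 1 probe stands for a gene it has the highest mean. Members and lists were chosen with earlier results of these data known. Correlations used 100000 permutations, or all 5040 for 7 arrays. Python 3.11.15 and matplotlib drew figures. The number of arrays limits precision.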

Additional observations from a re-analysis of the deposited data

Results flagged for a closer look

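The levels of 30 groups (10 genes at 1 probe each, in 3 groups of 8) were examined for a single array far from the others by Dixon's criterion, which chance meets in about 1 of 20 groups, and 2 arrays stood apart. RFIneg array 1, a dim array, gave an IGFBP4 level of 0.72, above the rest of its group. Dim arrays read higher than bright ones at this probe, with bright minus dim at -1.25. RFIpl array 3 gave an IGFBP5 level of 2.39, below the rest of its group. Without it the IGFBP5 difference without the block was -1.09 for RFIneg against RFIpl (adjusted p = 0.00800, limma) and -0.96 for RFIplR against RFIpl (adjusted p = 0.0207, limma), and both passed the threshold. Since array 3 was picked as the lowest of RFIpl, leaving it out widens both differences by construction, and these passes are not read as support.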

How the results depend on the processing

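Without the block, counts of called member probes were 0 in all 4 comparisons under the replicate block (IGFBP5, RFIneg against RFIpl: -0.94, adjusted p = 0.235, limma), slide or scan day as a block, quantile or median scaling, normexp, no filter, a filter on all 24 arrays, the deposited table, pooled probes, robust variance, either brightness class alone and without RFIpl arrays 1 and 2 or 7 and 8. Some of these settings called few of all 28601 probes. For RFIneg against RFIpl and RFIplR against RFIpl these were 0 and 2 (replicate block), 0 and 25 (slide), and 0 and 4 (normexp). Array weights called 2 for RFIneg against RFIpl, 4 for RFIplR against RFIpl and 4 for any difference, beside 2950, 2757 and 3903 of all probes. Brightness alone called 4, 4 and 5, beside 6.63%, 10.3% and 9.03% of all probes. Brightness with scan day as blocks called 4, 6 and 5, and brightness with slide 0, 2 and 0, with shares of all probes not given. Leaving out 1 array gave 0 to 1 calls, the 1 without RFIpl array 3. Deviations of same-numbered arrays from their group means correlated above 0.1 in 4, 3 and 5 of 8 pairs. These deviations hold the brightness shift, so they cannot show whether same-numbered pigs are paired. With brightness as a block, leaving out 1 array gave 1 to 6 calls for RFIneg against RFIpl, 1 to 9 for RFIplR against RFIpl, 0 for RFIneg against RFIplR and 1 to 6 for any difference, lowest without RFIneg arrays 2, 3, 4 or 7 or RFIpl arrays 2, 4, 5 or 6 (first), RFIplR array 7 (next) or RFIpl arrays 1 or 6 (last), highest without RFIpl array 3. Without RFIpl arrays 1 and 2 these were 0, 2 and 0, and without arrays 7 and 8 they were 4, 5 and 2. The cause was not tested. For fits that leave out arrays the shares of all probes called are not given, so their counts are descriptions. Normexp moved the median of all probes by -0.19 for RFIneg against RFIplR and 0.20 for RFIplR against RFIpl. No difference passed the threshold in opposite directions under different settings; IGF2R at base 822, called at 0.40 for RFIplR against RFIpl with brightness as a block, stood at -0.08 (not called) after normexp. Levels of IGF1R lie near background.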

Other observations

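Probes outside the membership rule, chosen after their values were seen, carry IGF system descriptions in the scanner files. A probe described as insulin-like growth factor 2 mRNA binding protein 2, an RNA-binding protein that binds IGF2 transcripts, had means of -3.06 (RFIneg), -1.98 (RFIpl) and -3.43 (RFIplR). It differed by -1.45 ± 0.25 for RFIplR against RFIpl (adjusted p = 0.0134, limma, without the block) and by -1.08 ± 0.25 for RFIneg against RFIpl (adjusted p = 0.0735, limma). Another probe with that description, which the files name RFC4, had means of -4.24 (RFIneg), -3.05 (RFIpl) and -4.27 (RFIplR). It differed by -1.19 ± 0.23 for RFIneg (adjusted p = 0.0319, limma) and by -1.21 ± 0.23 for RFIplR (adjusted p = 0.0228, limma), and which of these genes it reads was not tested. A further kept probe with the same description and name stood at -0.95 ± 0.49 for RFIneg (adjusted p = 0.803, limma) and at -0.80 ± 0.49 (adjusted p = 0.833, limma) for RFIplR, neither called without the block. With brightness as a block this probe stood at -0.95 (adjusted p = 0.0334, limma) and -1.03 (adjusted p = 0.0171, limma), both past the threshold. The probes with this description lie at levels like those of IGF1R. Whether they passed the filter on dim signals only through RFIpl was not examined, so their differences are given as descriptions. A probe described as IGF2R averaged -1.76, -1.86 and -1.50, and one described as IGFBP4 averaged 3.36, 3.69 and 3.91, in RFIneg, RFIpl and RFIplR, with none of their differences called. One described as the IGF1 precursor averaged 0.47, 0.52 and 0.28 in the same order. With brightness as a block it differed from RFIpl by -0.05 in RFIneg (adjusted p = 0.929, limma) and -0.24 in RFIplR (adjusted p = 0.525, limma), neither called.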
